A study of Mus musculus with 15 samples.

Results

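Kruppel-like factors are transcription factors with zinc fingers that bind GC-rich and CACCC sequences in promoters. Some members, such as Klf2, Klf4, Klf5 and Klf6, are known mainly as activators or as context-dependent factors, whereas Klf3, Klf9, Klf10 and Klf13 can repress through corepressors. In the uterus the family is known for its part in the response to ovarian steroids. Klf9 is known there as a partner of the progesterone receptor, Klf4 and Klf15 have been described as regulators of epithelial proliferation, and Klf5 is needed for implantation.

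The 10 factors described here are Klf2, Klf3, Klf4, Klf5, Klf6, Klf7, Klf9, Klf10, Klf13 and Klf15, of 27962 gene names on the array. They were taken by gene name, as all non-control probes that carry it, which gave 18 probes: 2 for each of 8 factors and 1 each for Klf4 and Klf10. All 18 probes were well above background and unsaturated on all 15 arrays. Uterine RNA was hybridized to one-color Agilent arrays, 3 per group. All mice were females, 10 weeks old or more, which were ovariectomized, rested for 10 to 14 days and injected intraperitoneally with 100 μL. The saline group was collected at 24 hr, and 250 ng per mouse of estradiol (E2) or of estriol (E3) was given for 2 or 24 hr. E3 is a weak estrogen that differs from E2 by an additional hydroxyl group. The design text gives each array 1 uterus, whereas the study's methods speak of pooled tissue, so the p-values measure the spread between arrays.

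The E2 2 hr mice were labelled C57bl6/Jx129 and Esr1 wild type, and the other 4 groups were labelled C57bl6/J. The E2 2 hr arrays also came from another scanner and other slides, so that compound, strain and scanner cannot be told apart in any contrast with them. The E2 24 hr arrays lay on slides 5 and 6 and all 3 E3 24 hr arrays on slide 7, with no other group on them, so that compound and slide cannot be told apart at 24 hr either. Saline lay on slides 3 and 4, and slide 4 also held the E3 2 hr arrays. No saline arrays at 2 hr were analysed here, and each 2 hr value is set against saline at 24 hr. The 75th percentile of intensity ran from 2845 to 4187 over the arrays, and 77.8 to 81.8% of probes were well above background. A level below is the log2 intensity minus that percentile, and a change is a difference of such levels, with its SE from a limma fit over all 15 arrays. A change was called at p below 0.001 with at least a 2-fold difference, and adjusted p-values are Benjamini-Hochberg values over all tested probes. Where a factor has 2 probes, the brighter one represents it.

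All 5 markers each of uterine epithelium, stroma and myometrium were well above background on every array. Their summed levels, where 1 is the array's 75th percentile, were 71.4 to 97.4 for epithelium in saline, 50.7 to 66.9 in E2 2 hr, 54.6 to 71.7 in E3 2 hr, 154 to 165 in E2 24 hr and 120 to 129 in E3 24 hr. In the same order of groups, stroma summed to 115 to 153, 138 to 145, 97.0 to 108, 98.9 to 111 and 122 to 134, and myometrium to 111 to 114, 110 to 126, 117 to 127, 169 to 183 and 172 to 224. By these sums epithelium was thus below saline in E2 2 hr and above it in both 24 hr groups. Stroma was below it in E3 2 hr and E2 24 hr, and myometrium was above it in E3 2 hr and both 24 hr groups. The brightest markers weigh most in a sum, and within a list markers went both ways. In E2 2 hr the stroma markers Hoxa10, Hoxa11 and Pdgfra lay below every saline array and Dcn and Pgr above (list median change -0.62). In E3 2 hr the myometrium markers Myh11 and Smtn lay below every saline array, Cnn1 lay above and Des and Actg2 overlapped (list median change 0.072). Leukocyte markers summed to 38.5 on E3 24 hr replicate 3 against 8.06 and 8.31 on the other E3 24 hr arrays, to 27.9 on E3 2 hr replicate 3 against 7.51 and 11.95, to 16.1 on saline replicate 2 against 6.11 and 6.74, and to 4.36 to 12.4 on the E2 arrays. Skeletal muscle markers summed to 3.597 to 3.97 in saline, 2.38 to 2.98 in E2 2 hr, 3.92 to 4.45 in E3 2 hr, 8.54 to 11.5 in E2 24 hr and 5.61 to 8.61 in E3 24 hr. Acta1 was the brightest of these on every array and made up most of the sum. Acta1, Ckm and Tnnt3 lay above saline in both 24 hr groups, Mylpf did not, and Myh4 was not well above background on most arrays. The part of these cell types in the values below was not tested. Some arrays stood apart by 5 pancreas markers, which summed to 362 and 6.45 on E3 2 hr replicates 2 and 3 and to 153 and 2.52 on E2 24 hr replicates 2 and 3, against 0.145 to 0.317 on the other 11 arrays. Without E3 2 hr replicate 2, Klf4 and Klf15 changed by 1.70 and -1.97 in E3 2 hr, and without E2 24 hr replicate 2 Klf15 changed by -1.82 in E2 24 hr, all called as with all arrays. In whole tissue, fewer cells of a type and less RNA per cell cannot be told apart.

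Klf2 and Klf13 carried probes that gave different answers, and stretches of these are shown because the results turn on them. The representative Klf2 probe was 78.3% G or C and the second was 43.3%. They lie on the plus strand of chr8:70842757-70842816 and chr8:70844133-70844192 in mm7, the build of the array annotation. The first 30 bases of each are printed, with runs of 4 or more G or C in capitals.
Klf2 representative probe: acaCGCCGCCGCtcaGCCCCGaCGGCCCCC
Klf2 second probe: tgtatataagactatgaccgattgtatttc

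The Klf13 probes both cross a splice junction on the minus strand of chromosome 7. The representative probe spans 59641560 to 59687788 and the second spans 59641606 to 59674537 in mm7. The stretches below hold the first 30 bases of the representative probe and the last 30 of the second, with the 10 bases they share in capitals. The letters before the shared stretch differ, so the 2 probes join different upstream exons to the same downstream exon. Of the representative probe only 4 bases come before that stretch, against 50 of the second. Most of the representative probe thus lies in the shared exon, and whether it tells the upstream exons apart was not tested.
Klf13 representative probe: cacaGGTGAGAGGCctttcgcctgcagctg
Klf13 second probe: cttgccccaacaaagagcctGGTGAGAGGC

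**Figure D1:**
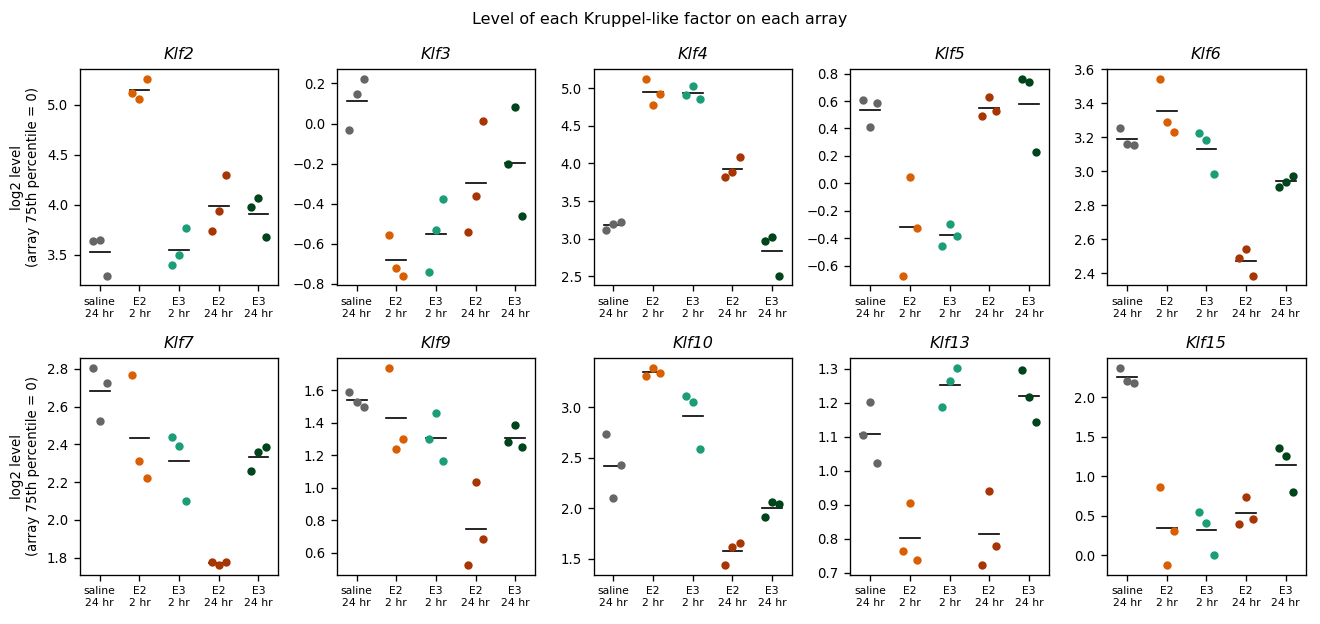
Level of each factor by its representative probe on each of the 15 arrays (y axis, log2 intensity with the array's 75th percentile at 0; x axis, the 5 groups; points, arrays; bars, group means). The Klf4 arrays at 2 hr lie above all others and the Klf15 saline arrays lie above all treated arrays.

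Klf4 rose at 2 hr with both compounds and Klf15 fell with both. Klf4, known for its part in epithelial differentiation and in reprogramming, had saline levels of 3.12, 3.19 and 3.23. Its levels were 5.12, 4.78 and 4.92 with E2 and 4.91, 5.02 and 4.86 with E3 at 2 hr. The treated arrays overlapped each other and lay above all saline arrays. The log2 change from saline was 1.76 ± 0.14 (SE, n = 3, limma adjusted p = 4.0e-07) for E2, or 3.40-fold, and 1.75 ± 0.14 (adjusted p = 8.5e-07) for E3. The difference between the compounds at 2 hr was -0.013, with a 95% interval of -0.31 to 0.28.

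At 24 hr the compounds parted. Klf4 levels were 3.82, 3.89 and 4.08 with E2, still above every saline array, and 2.97, 3.02 and 2.51 with E3, below every saline array. The change from saline was 0.75 (SE 0.14, adjusted p = 4.3e-04) for E2, which was under 2-fold, and -0.34 (SE 0.14, adjusted p = 0.068) for E3, so neither was called. E3 minus E2 at 24 hr was -1.09 on the log2 scale (95% interval -1.39 to -0.80, limma adjusted p = 1.0e-04), which was called. With the slide as a random block it was -1.09 and called, although the compounds share no slide at 24 hr. Without the third E3 24 hr array this difference was -0.93 and fell short of 2-fold, as it did under quantile normalization (-0.97). That array is the one with the leukocyte sum of 38.5, whose part in the Klf4 value was not tested. From 2 to 24 hr Klf4 changed by -1.01 with E2 and -2.09 with E3, and both falls were called. The E2 fall lay at the 2-fold limit and was -0.92, -0.96 and -0.99, not called, without E2 2 hr replicate 1, E2 24 hr replicate 1 or E2 24 hr replicate 2. It was also not called under normexp background correction (-0.93) or with the percentile over probes above background on all arrays (-0.99). In order, the Klf4 groups ran from the 2 hr groups, which overlapped, through E2 at 24 hr and saline to E3 at 24 hr, and no other neighbours overlapped.

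Klf15, a factor known for metabolic control and as a glucocorticoid target, was lower than saline in all 4 treated groups. Saline levels were 2.37, 2.20 and 2.17. At 2 hr the levels were 0.86, -0.12 and 0.30 with E2 and 0.55, 0.41 and 0.0070 with E3. At 24 hr they were 0.40, 0.74 and 0.46 with E2 and 1.35, 1.26 and 0.80 with E3. Every treated array lay below every saline array, and the first 3 treated groups overlapped each other. The changes were -1.90 ± 0.23 (adjusted p = 1.6e-05) and -1.93 ± 0.23 (adjusted p = 2.5e-05) for E2 and E3 at 2 hr by limma. They were -1.72 ± 0.23 (adjusted p = 4.6e-05) and -1.11 ± 0.23 (adjusted p = 0.0034) at 24 hr, and all 4 were called.

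The E3 24 hr call did not hold when single arrays were left out. It was lost without saline replicate 1, 2 or 3 (-1.05, -1.13 and -1.15) and without E3 24 hr replicate 2 or 3 (-1.17 and -0.94), the last being the array with the high leukocyte sum. The E3 minus E2 difference was -0.024 at 2 hr (95% interval -0.53 to 0.48) and 0.61 at 24 hr (0.11 to 1.11), and neither was called. The second Klf15 probe, which lies nearer the start of the transcript, changed by -2.67, -1.89, -1.57 and -1.04 in the same order, all called. On this probe E3 minus E2 was 0.78 at 2 hr (95% interval 0.26 to 1.29, limma adjusted p = 0.019), not called, and 1.05, called, without E2 2 hr replicate 1. Its E3 24 hr call was lost in 11 of 15 fits without 1 array, over which the change ran from -1.20 to -0.84, and under normexp background correction (-0.63), quantile normalization (-0.99) and the replicate block (-1.04). From 2 to 24 hr the representative probe changed by 0.19 with E2 and 0.82 with E3, neither called. The second probe changed by 1.10 with E2 (limma adjusted p = 0.0012), which was called, and by 0.85 with E3, which was not. That E2 call was lost in 5 of 15 fits without 1 array (E2 2 hr replicate 2 or 3, or any E2 24 hr array), over which the change ran from 0.88 to 1.37, and under normexp background correction (0.92) and no scaling between arrays (1.00).

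Klf15 is also made by liver and fat, and the summed level of 4 liver markers (Alb, Apoa1, Fgb and Ttr among 5 listed) moved with the groups. It was 3.65 to 13.3 in saline, 0.0069 to 0.015 in E2 2 hr, 0.879 to 2.12 in E3 2 hr, 0.126 to 0.179 in E2 24 hr and 0.171 to 0.344 in E3 24 hr, where 1 is the array's 75th percentile. On the E2 2 hr arrays 0 or 1 of the 4 liver markers was well above background (Alb, on replicate 1), so the sums of the other arrays there are background readings. In E2 24 hr 2 to 4 and in E3 24 hr 3 or 4 of the 4 were above it. Klf15 and the liver sum were both higher in saline than in every treated group. From E3 2 hr to E3 24 hr they went opposite ways, the liver sum being lower and Klf15 higher at 24 hr. The summed fat markers overlapped between saline (3.78 to 22.0) and every treated group but E2 24 hr (2.15 to 3.65). The part of these tissues in the Klf15 values was not tested.

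**Figure D2:**
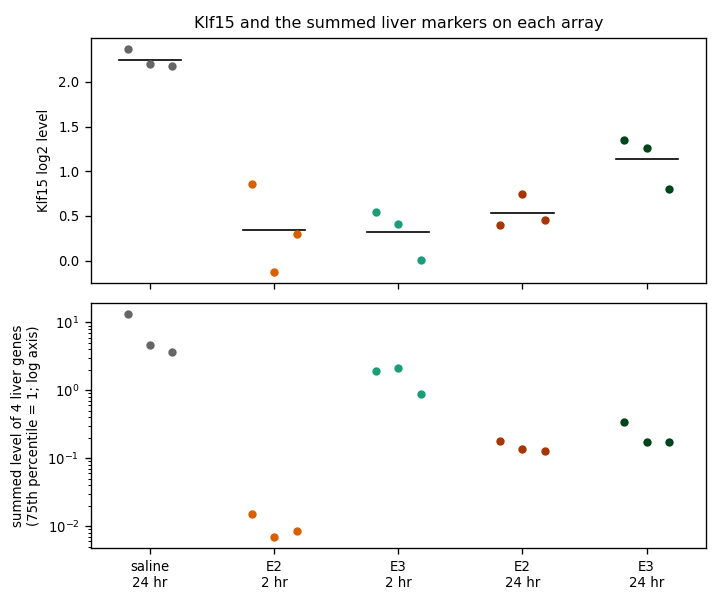
Klf15 log2 level (upper panel) and summed level of 4 liver marker genes (lower panel, log axis) on each array by group; points are arrays and bars are group means. In both panels saline lay above every treated group. Klf15 levels overlapped between the 2 hr groups, while the liver sum of E3 2 hr (0.879 to 2.12) lay above that of E2 2 hr (0.0069 to 0.015), where 0 or 1 of the 4 markers was well above background.

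Klf9, the progesterone receptor partner, moved little at 2 hr and was lower with E2 at 24 hr. Its levels were 1.59, 1.53 and 1.49 in saline, and 1.74, 1.24 and 1.30 with E2 and 1.30, 1.46 and 1.17 with E3 at 2 hr. They were 0.53, 1.03 and 0.68 with E2 at 24 hr and 1.28, 1.38 and 1.25 with E3 at 24 hr. The E2 24 hr arrays lay below all other arrays, and the other 4 groups lay close together, with E2 2 hr overlapping each of them. The changes were -0.11 (SE 0.15, adjusted p = 0.53) and -0.23 (SE 0.15, adjusted p = 0.22) at 2 hr, and -0.79 (SE 0.15, adjusted p = 5.6e-04) for E2 and -0.23 (SE 0.15, adjusted p = 0.25) for E3 at 24 hr. The E2 24 hr change was under 2-fold and was not called. E3 minus E2 at 24 hr was 0.56 (95% interval 0.24 to 0.88), also under 2-fold. The second probe gave 0.055, -0.25, -0.83 and -0.26.

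Klf2, a factor of endothelial quiescence, rose at 2 hr with E2 on both probes, and with E3 on 1 of them. The representative probe read 3.64, 3.65 and 3.29 in saline, 5.12, 5.05 and 5.26 with E2 at 2 hr and 3.39, 3.50 and 3.76 with E3 at 2 hr. The second probe read 3.999, 3.64 and 3.69 in saline, 5.59, 4.63 and 4.75 with E2 and 5.12, 4.94 and 4.80 with E3. On the second probe both 2 hr groups lay above saline and overlapped each other, whereas on the representative probe E3 overlapped saline. The representative probe changed by 1.61 ± 0.16 (limma adjusted p = 3.5e-06) with E2 and 0.024 ± 0.16 (adjusted p = 0.92) with E3. The second changed by 1.22 ± 0.22 (adjusted p = 3.9e-04) and 1.18 ± 0.22 (adjusted p = 7.2e-04), both called. The E2 call was lost without E2 2 hr replicate 1, at 0.92, and the E3 call without E3 2 hr replicate 1, at 1.09. Against saline replicate 3 alone, the 1 saline array on the slide of the E3 2 hr arrays, the E3 change was 1.27, and with an arm of 1 array it was not called.

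At 24 hr the Klf2 probes lay on opposite sides of saline. The representative probe read 3.74, 3.94 and 4.29 with E2 and 3.98, 4.07 and 3.68 with E3, changes of 0.46 and 0.38 that were not called. The second read 2.84, 2.68 and 2.42 with E2 and 3.04, 3.12 and 3.35 with E3, a called change of -1.13 with E2 and -0.60, not called, with E3. The E2 call was lost without saline replicate 1 or E2 24 hr replicate 3, at -1.02 and -1.02. E3 minus E2 at 2 hr was -1.59 (95% interval -1.94 to -1.24) on the representative probe, which was called, and -0.037 (-0.51 to 0.44) on the second. From 2 to 24 hr the representative probe changed by -1.15 with E2, which was called, and 0.36 with E3, which was not. The second fell with both, with changes of -2.34 ± 0.22 (limma adjusted p = 1.1e-06) with E2 and -1.78 ± 0.22 (adjusted p = 2.5e-05) with E3, both called. The direction of Klf2 at 24 hr, its time course with E3 and its difference between compounds at 2 hr therefore depended on the probe, and the representative was the brighter by mean levels of 4.02 against 3.91. The summed endothelial markers were 7.72 to 7.99 in saline, 7.47 to 9.82 with E2 and 5.96 to 6.40 with E3 at 2 hr, and 4.61 to 5.27 with E2 and 5.85 to 6.23 with E3 at 24 hr. Their sum was lower with E3 than with E2 at 2 hr without overlap, but single markers went both ways. Cdh5 read 1.72 to 2.18 with E2 and 1.11 to 1.36 with E3, whereas Tie1 read -1.39 to -0.98 and -0.92 to -0.82. The median of E3 minus E2 over the 5 markers at 2 hr was 0.055, and 0 of 5 were called. The part of these markers in the Klf2 values was not tested.

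Klf10, a TGF-beta-inducible repressor measured by 1 probe, read 2.73, 2.10 and 2.42 in saline. It read 3.31, 3.39 and 3.34 with E2 and 3.11, 3.05 and 2.58 with E3 at 2 hr, and 1.44, 1.62 and 1.65 with E2 and 1.91, 2.06 and 2.04 with E3 at 24 hr. Both E2 groups and E3 at 24 hr were clear of saline, and E3 at 2 hr overlapped it. The change at 2 hr was 0.93 (SE 0.16, adjusted p = 2.9e-04) for E2 and 0.50 (SE 0.16, adjusted p = 0.022) for E3. At 24 hr it was -0.85 (SE 0.16, adjusted p = 6.4e-04) and -0.41 (SE 0.16, adjusted p = 0.066), on the other side of saline. None of the 4 was called. The change from 2 to 24 hr was -1.77 ± 0.16 with E2, which was called, and -0.91 ± 0.16 with E3, which was not. The E2 2 hr change was 1.09 and called without saline replicate 1, and 1.00 and called without scaling between arrays. The E2 24 hr change was -1.01 and called without saline replicate 2. The E3 change from 2 to 24 hr was -1.07 and called without E3 2 hr replicate 3.

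**Figure D3:**
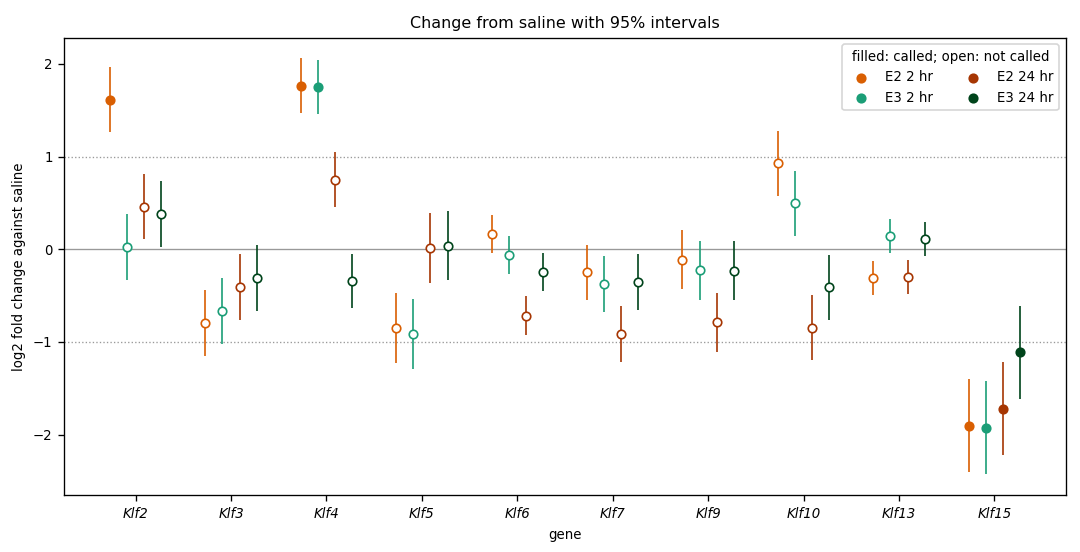
log2 fold change from saline with 95% intervals for the 10 factors (x axis) by representative probe; colors mark compound and time, filled points were called and dotted lines mark 2-fold. Klf15 was called in all 4 groups, Klf4 in both 2 hr groups and Klf2 in E2 2 hr.

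Klf5 and Klf3 were lower at 2 hr with both compounds on their representative probes, short of 2-fold. Klf5, an activator of proliferation in epithelia, read 0.61, 0.41 and 0.59 in saline, -0.67, 0.046 and -0.33 with E2 and -0.46, -0.29 and -0.38 with E3 at 2 hr. At 24 hr it read 0.49, 0.63 and 0.53 with E2 and 0.76, 0.74 and 0.23 with E3. The 2 hr arrays lay below saline and the 24 hr arrays overlapped it. The changes were -0.85 (SE 0.17, adjusted p = 9.5e-04) and -0.91 (SE 0.17, adjusted p = 8.4e-04) at 2 hr, and 0.012 and 0.039 at 24 hr. Without E2 2 hr replicate 2 the E2 change was -1.03 and was called. The dim second probe, which matches a sequence inside the genomic span of the first, differed, with 0.22 and -0.51 at 2 hr and -0.90 and -0.51 at 24 hr. From 2 to 24 hr with E2 it changed by -1.12 (limma adjusted p = 3.8e-04), which was called, against 0.87, not called, on the representative probe. That call was lost without E2 2 hr replicate 2 (-0.90), without E2 24 hr replicate 1 (-1.04) and under normexp (-0.90). In the fit without E2 2 hr replicate 2 the representative probe's change was 1.05 and was called. With E3 the probes gave -0.0037 and 0.95, neither called, and the representative probe gave 1.13, called, without E3 24 hr replicate 3.

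Klf3, a repressor that recruits CtBP, read -0.032, 0.15 and 0.22 in saline, -0.56, -0.72 and -0.76 with E2 and -0.74, -0.53 and -0.38 with E3 at 2 hr. All 2 hr arrays lay below all saline arrays. The changes were -0.79 (SE 0.16, adjusted p = 0.0011) and -0.66 (SE 0.16, adjusted p = 0.0049), and at 24 hr they were -0.41 and -0.31, where the arrays overlapped saline. The second probe gave -0.76 and -0.36 at 2 hr and 0.068 and 0.038 at 24 hr.

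Klf6 and Klf7, with Klf9 and Klf10, were lower with E2 at 24 hr by less than 2-fold. Klf6, an activator known from injury responses, read 3.25, 3.16 and 3.16 in saline and 2.49, 2.54 and 2.39 with E2 and 2.91, 2.94 and 2.97 with E3 at 24 hr. Both treated groups lay below saline and E2 lay below E3. The changes were -0.71 (SE 0.095, adjusted p = 4.2e-05) and -0.25 (SE 0.095, adjusted p = 0.061). At 2 hr they were 0.17 with E2 and -0.058 with E3, whereas the second probe gave -0.63 and -0.12.

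Klf7, best known in neurons, read 2.81, 2.52 and 2.73 in saline, 1.78, 1.76 and 1.78 with E2 and 2.26, 2.36 and 2.39 with E3 at 24 hr. The changes were -0.91 (SE 0.14, adjusted p = 1.2e-04) and -0.35 (SE 0.14, adjusted p = 0.067), with -0.25 and -0.37 at 2 hr. Under quantile normalization the E2 24 hr change was -1.07 and was called. E3 minus E2 at 24 hr was 0.47 (95% interval 0.26 to 0.67) for Klf6 and 0.56 (0.26 to 0.86) for Klf7, both under 2-fold.

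Klf13, a repressor related to Klf9, changed by less than 2-fold on its representative probe and by more on its second. The representative probe read 1.10, 1.20 and 1.02 in saline. It read 0.76, 0.91 and 0.74 with E2 and 1.19, 1.26 and 1.30 with E3 at 2 hr, and 0.72, 0.94 and 0.78 with E2 and 1.30, 1.22 and 1.14 with E3 at 24 hr. The E2 groups lay below saline and the E3 groups did not. The changes were -0.31, 0.14, -0.29 and 0.11. The second probe, most of which comes before the shared exon, read -3.41, -3.40 and -3.28 in saline, -4.27, -4.65 and -4.87 with E2 and -4.96, -4.63 and -4.83 with E3 at 2 hr. Both 2 hr groups lay below saline, with called changes of -1.23 ± 0.15 (limma adjusted p = 1.5e-05) and -1.45 ± 0.15 (adjusted p = 7.0e-06). Its 24 hr changes were -0.52 with E2 and 0.27 with E3. From 2 to 24 hr it rose with E3 by 1.71 ± 0.15 (adjusted p = 1.6e-06), which was called, and read 0.71, not called, with E2, whereas the representative probe gave -0.032 and 0.012. Under normexp background correction the 2 hr calls of this dim probe were lost, at -0.91 and -1.11.

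**Figure D4:**
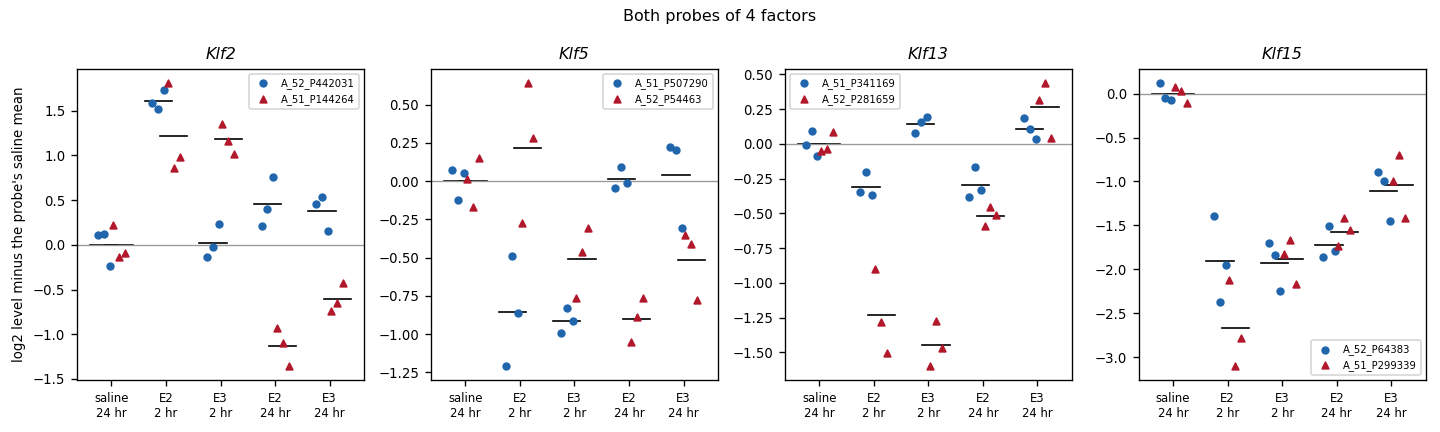
Both probes of Klf2, Klf5, Klf13 and Klf15 on each array, as log2 level minus the probe's own saline mean (y axis) by group; circles are representative probes, triangles second probes and bars group means. The Klf15 probes fell together, whereas the Klf2 probes parted in E3 2 hr and at 24 hr and the Klf13 probes parted at 2 hr.

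Counted over representative probes, 3 of the 10 factors were called in E2 2 hr (2 higher, 1 lower), where 21.1% of all tested probes were called (10.8% higher, 10.3% lower). In E3 2 hr 2 of 10 were called (1 higher, 1 lower) against 13.6% of all probes (4.83% higher, 8.82% lower). In E2 24 hr and in E3 24 hr it was 1 of 10, Klf15, against 18.1% and 3.83% of all probes (11.1% and 1.99% lower). With 10 factors, nothing particular to the family is read from them. The treated arrays did not overlap saline for 7, 6, 8 and 7 of the 10 factors in E2 2 hr, E3 2 hr, E2 24 hr and E3 24 hr, beside 67.3%, 57.9%, 68.7% and 51.3% of all probes. By the sign of the mean change alone, 6 of 10 factors were below saline in each 2 hr group and 7 of 10 in each 24 hr group. The median over all tested probes was also below 0 in each of these comparisons. Factors near 0 changed side under 1 or more of the normalizations tried, namely Klf6 and Klf9 in E2 2 hr, Klf2 in E3 2 hr and Klf5 in both 24 hr groups. The median log2 change over the 10 factors was -0.18, -0.14, -0.56 and -0.28 in the order E2 2 hr, E3 2 hr, E2 24 hr and E3 24 hr, beside -0.065, -0.088, -0.062 and -0.012 over all tested probes. All 4 comparisons share the saline arrays.

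Between the compounds, 1 of 10 factors was called at 2 hr (Klf2, lower with E3, 7.37% of all probes called, 5.84% lower) and 1 of 10 at 24 hr (Klf4, lower with E3, 4.83% called, 2.09% lower). The E2 and E3 arrays did not overlap for 4 of 10 factors at 2 hr and 7 of 10 at 24 hr, beside 50.9% and 51.1% of all probes. By the sign of the mean difference alone, E3 was above E2 for 8 of 10 factors at 24 hr. The median difference was 0.42 beside 0.060 over all tested probes, which was also above 0, and Klf2 and Klf5 changed side under 1 or more normalizations. At 24 hr 5 of 10 factors had an adjusted p below 0.05 for this difference, beside 36.3% of all probes. Between times, 3 of 10 fell from 2 to 24 hr with E2 (Klf2, Klf4 and Klf10, 31% of all probes called, 17.6% lower), and 1 of 10 fell with E3 (Klf4, 16%, 6.66% lower). These counts are over representative probes, and the second probes of Klf2, Klf5, Klf13 and Klf15 gave other calls between times, as described above. For 2 of 10 factors the E3 minus E2 difference itself changed between the times (15.4% of all probes called, 11% higher and 4.41% lower), Klf2 by 1.51 ± 0.23 and Klf4 by -1.08 ± 0.19. The Klf4 call was lost without E3 24 hr replicate 3, at -0.92, and without scaling between arrays, at -1.04. With no minimum fold the called factors were 6 of 10 in E2 2 hr and in E2 24 hr, beside 41.1% and 39.2% of all probes, and 2 and 3 of 10 for E3 minus E2 at 2 and 24 hr, beside 22.6% and 18.6%. From 2 to 24 hr they were then 7 of 10 with E2 and 3 of 10 with E3, beside 51% and 34.7%. Klf5 in E3 2 hr (-0.91) and Klf6 for the change in the E3 minus E2 difference (0.69) gained a call as well.

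**Figure D5:**
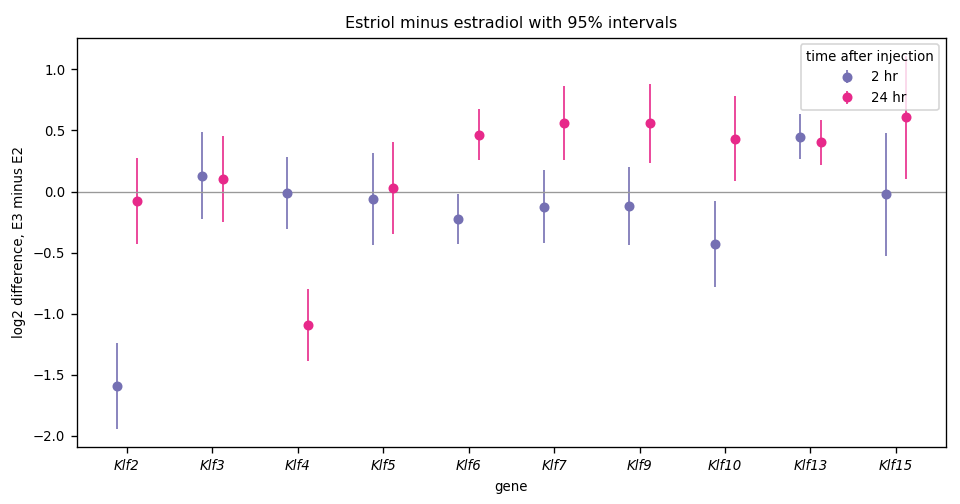
log2 difference of E3 minus E2 at 2 and 24 hr with 95% intervals for the 10 factors by representative probe (x axis, gene; colors, time). At 24 hr 8 of 10 factors lie above 0 and Klf4 lies lowest, at -1.09.

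Among other Kruppel-like and Sp factors, 13 of 15 listed genes were tested, all but Klf14 and Sp8. In E2 2 hr 1 rose and 4 fell, beside 10.8% and 10.3% of all probes, and in E3 2 hr 1 rose and 3 fell, beside 4.83% and 8.82%. In E2 24 hr 3 fell and in E3 24 hr 1 fell, beside 11.1% and 1.99%. Sp5 fell at 2 hr, with log2 changes of -2.48 with E2 and -1.95 with E3. Klf16 rose by 1.46 and 1.47 at 2 hr, and Klf1, an erythroid factor, fell, with changes of -1.17 and -1.41. Klf11, a TGF-beta-inducible relative of Klf10, fell with E2, with changes of -1.38 at 2 hr and -1.14 at 24 hr. Sp4 fell at 24 hr, with changes of -2.05 with E2 and -1.55 with E3, and Klf12 fell with E2 (-1.24). The list median was 0.072, -0.66, -0.51 and -0.27 in E2 2 hr, E3 2 hr, E2 24 hr and E3 24 hr, beside -0.065, -0.088, -0.062 and -0.012 over all probes.

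Of 14 corepressors, coactivators and ubiquitin ligases that act with the family, 1 rose in E2 2 hr (Crebbp, an acetyltransferase, 1.29), beside 10.8% of all probes, and none was called in E3 2 hr, beside 13.6%. In E2 24 hr 1 fell (Siah1a, a ubiquitin ligase, -1.05), beside 11.1%, and in E3 24 hr none was called, beside 3.83%. Their median was 0.20, -0.026, -0.076 and -0.12 in the same order. Of 14 known targets of the family, 4 rose in E2 2 hr, beside 10.8% of all probes, and 2 in E3 2 hr, beside 4.83%. Cdkn1a, a cell cycle inhibitor and a target of Klf4, rose by 2.64 and 3.04. Smad7, an inhibitory Smad, rose by 2.09 with E2 and read 0.53, not called, with E3. Nos3, the endothelial nitric oxide synthase and a target of Klf2, rose by 1.09 and 1.17. At 24 hr 2 targets rose with E2, the replication factor Mcm2 (1.67) and the amino acid enzyme Bcat2 (1.01), beside 6.95% of all probes, and none was called with E3. The list median was -0.066, 0.084, -0.026 and -0.14 in the 4 comparisons with saline.

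Klf9 and Klf15 are also glucocorticoid targets, and 9 of 10 listed glucocorticoid targets were tested. In each 2 hr group 3 of 9 rose and 1 fell, where 10.8% of all probes rose and 10.3% fell with E2, and 4.83% and 8.82% with E3. Pdk4, a kinase of fuel choice, rose by 2.48 and 1.70, Sgk1, a kinase, by 2.33 and 2.45, and Dusp1, a phosphatase, by 2.42 and 2.38. Tsc22d3, the leucine zipper protein GILZ, fell, with changes of -1.25 and -1.31. At 24 hr 3 of 9 fell with E2 and 1 of 9 with E3, beside 11.1% and 1.99% of all probes. Those with E2 were Pdk4 (-1.40), Mt2 (-1.26) and Tsc22d3 (-1.13), and the one with E3 was Fkbp5 (-1.40). The list median was 0.32 and 0.44 at 2 hr, beside -0.065 and -0.088 over all probes, and -0.81 and -0.20 at 24 hr, beside -0.062 and -0.012, with E2 and E3.

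By smallest root mean square difference of centred levels over the 15 arrays, the genes most like Klf4 were Tsr1, Grwd1 and Ccdc86 (0.17, 0.19 and 0.21, against 0.88 for the spread of Klf4 itself). Those most like Klf9 were Dock4, Pid1 and P3h2 (0.11, 0.11 and 0.12, against 0.31). Those most like Klf15 were Minar2, Acvr2b and Cirbp (0.20, 0.21 and 0.22, against 0.77). Tsr1 changed by 1.65 and 1.59 at 2 hr, and by 0.63 with E2 and -0.30 with E3 at 24 hr.

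Klf4 and Klf15 moved in opposite directions at 2 hr, and their promoters are shown for that reason. RefSeq promoter sequences (GRCm38.p6) matched 8 of the 10 factors, all but Klf5 and Klf10. The 250 bases before the start are printed 5′ to 3′ on the gene's strand, Klf4 at chr4:55532476-55532725 (minus) and Klf15 at chr6:90462326-90462575 (plus). Capitals mark GC boxes (GGGCGG) and CACCC boxes (CACCC), both sought on either strand.
Klf4 promoter: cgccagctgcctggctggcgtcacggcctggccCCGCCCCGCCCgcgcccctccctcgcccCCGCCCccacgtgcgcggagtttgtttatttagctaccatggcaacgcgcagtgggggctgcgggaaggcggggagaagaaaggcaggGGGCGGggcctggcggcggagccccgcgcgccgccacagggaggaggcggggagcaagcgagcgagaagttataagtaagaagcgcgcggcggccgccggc
Klf15 promoter: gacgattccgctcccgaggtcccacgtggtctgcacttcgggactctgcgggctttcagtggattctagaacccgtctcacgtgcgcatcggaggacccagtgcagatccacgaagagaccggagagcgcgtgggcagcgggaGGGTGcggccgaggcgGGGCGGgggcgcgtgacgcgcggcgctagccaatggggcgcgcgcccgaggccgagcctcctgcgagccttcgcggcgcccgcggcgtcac

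The Klf4 window held 4 GC boxes and no CACCC box, and the Klf15 window held 1 of each. Over the 8 promoters, 7 held a GC box and 6 a CACCC box, whereas 32.7% and 52% of all 32851 promoters did. The Klf4 and Klf15 windows were 74% and 72% G or C, and these shares were not matched for base content. The estrogen response element palindrome (the half-site GGTCA, 3 bases of any kind and its reverse complement) was in 0 of 8 and in 0.0639% of all promoters, and the half-site alone, which the palindrome contains, was in 2 of 8, Klf3 and Klf6, and in 35.2% of all. The serum response element was in 0 of 8 and in 1.47% of all. A match is a description of letters in this window.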

How the data were processed

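Total RNA of mouse uterus was labelled with Cy3 and read on one-color Agilent arrays, 15 arrays in 5 groups of 3. The deposited intensity values were made by the authors with Agilent Feature Extraction 9.5 (9.5.3.1 per the file headers), whose processed signal is background-subtracted. The file headers name the annotation build mm7 (NCBI35). The deposited series values equal the processed signal and were used as an alternative.

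Outlier-flagged spots were left out, spots of 1 probe were averaged, and log2 intensity was taken minus the array's 75th percentile over 41174 probes. A probe was tested where 2 or more arrays of any group had it well above background, which left 34776 probes, fitted with limma 3.58.1 in R 4.3.3, in 1 fit with 5 group means and no block. A probe was called at p below 0.001, the limit in the study's methods, which used Rosetta Resolver, and at least a 2-fold change, which the study applied when it built clusters. p-values were adjusted by Benjamini-Hochberg over all tested probes. The groups came from the sample titles. A gene was represented by its brightest tested probe. Other genes were counted from fixed lists and named as examples when called, the largest changes from saline at each time first. The likest genes were the 3 with the smallest root mean square difference over the 15 arrays. Promoter and probe sequences were read with Python, and the limma step was tested on simulated data. The members and lists were chosen with earlier results of these data known. Alternatives covered background correction, normalization, filters, thresholds, probe choice, replicate and slide blocks and leaving out each array. The number of arrays limits the precision.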

Additional observations from a re-analysis of the deposited data

Results flagged for a closer look

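The difference between E3 and E2 was itself different at 24 hr and at 2 hr for 3 probes of the family, by an interaction contrast in the limma fit. The change in the E3 minus E2 difference was 1.51 on the log2 scale for the representative Klf2 probe, -1.08 for Klf4 and 1.00 for the second Klf13 probe. The second Klf2 probe gave 0.56 and the representative Klf13 probe -0.044, and neither was called. The Klf4 call was lost without E3 24 hr replicate 3 (-0.92) and without scaling between arrays (-1.04). The call of the second Klf13 probe was lost in 7 of 15 fits without 1 array, over which the value ran from 0.84 to 1.14, and under normexp background correction (1.23), quantile normalization (0.85), no scaling (1.05), the deposited series values (1.00) and the slide as a random block (1.00). The second Klf5 probe, at 1.11 and not called, was called at an adjusted p below 0.05 with 2-fold, and at 1.36 without E2 2 hr replicate 1. The second Klf9 probe, at 0.88, was called at 1.03 without E2 2 hr replicate 2. All these contrasts include the E2 2 hr arrays, so compound and time cannot be told apart from strain and scanner there.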

How the results depend on the processing

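Of 90 results for representative probes and 72 for second probes, under 30 alternatives, 102 values turned sign, 75 and 27 of them. In 0 of these did either fit call the change, and in 6 the 95% interval of the reported value lay clear of 0. A further 58 values lost a call, 43 gained one and 4225 kept direction and call. With no minimum fold the called factors numbered 6 in E2 2 hr and in E2 24 hr, 2 and 3 for E3 over E2 at 2 and 24 hr, and 7 and 3 for 24 over 2 hr with E2 and E3. Klf5 in E3 2 hr (-0.91) and Klf6 for the E3 minus E2 difference between times (0.69) were then called too. Quantile normalization gave 2 in E2 24 hr and 0 for E3 over E2 at 24 hr, no scaling gave 1 for the E3 minus E2 difference between times, and the mean over both probes gave 0 for E3 over E2 at 2 hr. Over the fits without 1 array, the called factors ran from 3 to 4 in E2 2 hr, 2 to 4 for E2 24 over 2 hr, 1 to 2 in E2 24 hr, 0 to 1 in E3 24 hr, 0 to 1 for E3 over E2 at 24 hr, 1 to 2 for E3 24 over 2 hr and 1 to 2 for the difference between times. The 3 E2 2 hr arrays were also left out, and saline replicate 3 alone was set against E3 2 hr, both chosen after seeing the data. In that comparison, as with the slide as a fixed block, the second Klf6 probe turned to 0.014. The median log2 value of all tested probes for the E3 minus E2 difference between times was 0.11 as reported and 0.47 under normexp, and for E3 at 24 hr it was -0.012 and 0.30. Under normexp background correction, the sign turned in Klf9 (0.034) for E2 at 2 hr, in Klf2 (-8.8e-05) for E3 at 2 hr, in Klf5's second probe (0.20) for E3 at 24 hr, in Klf4 (0.018) for E3 over E2 at 2 hr, in Klf5 (-0.0096) for E3 over E2 at 24 hr, in Klf13 (-0.080) for E2 24 over 2 hr, in Klf5's second probe (0.62) and Klf7 (-0.024) for E3 24 over 2 hr and in Klf15's second probe (0.15) for the E3 minus E2 difference between times. Under quantile normalization, the sign turned in Klf6 (-0.039) for E2 at 2 hr, in Klf2 (-0.085) for E3 at 2 hr, in Klf5 (-0.027) for E2 at 24 hr, in Klf2's second probe (0.070) and Klf4 (0.10) for E3 over E2 at 2 hr, in Klf2 (0.061) for E3 over E2 at 24 hr and in Klf9 (0.0034) for E3 24 over 2 hr. With the 75th percentile over probes above background on all arrays, the sign turned in Klf9's second probe (-0.016) for E2 at 2 hr, in Klf2 (-0.023) for E3 at 2 hr, in Klf5 (-0.038) for E2 at 24 hr, in Klf4 (0.010) for E3 over E2 at 2 hr and in Klf5's second probe (0.015), Klf9 (0.016) and Klf9's second probe (0.012) for E3 24 over 2 hr. Without scaling between arrays, the sign turned in Klf5 (-0.0087) for E2 at 24 hr, in Klf3's second probe (-0.030) and Klf5 (-0.029) for E3 at 24 hr, in Klf5 (-0.020) for E3 over E2 at 24 hr, in Klf13 (-0.083) for E2 24 over 2 hr, in Klf7 (-0.029) for E3 24 over 2 hr and in Klf3 (0.017) for the E3 minus E2 difference between times. With the mean over both probes of a gene, the sign turned in Klf6 (-0.23) for E2 at 2 hr, in Klf13 (-0.65) for E3 at 2 hr, in Klf2 (-0.33) and Klf5 (-0.44) for E2 at 24 hr, in Klf2 (-0.11) and Klf5 (-0.24) for E3 at 24 hr, in Klf6 (0.15) and Klf15 (0.38) for E3 over E2 at 2 hr, in Klf2 (0.22) for E3 over E2 at 24 hr, in Klf5 (-0.13) for E2 24 over 2 hr, in Klf2 (-0.71), Klf7 (-0.0050) and Klf13 (0.84) for E3 24 over 2 hr and in Klf13 (0.48) for the E3 minus E2 difference between times. With single arrays left out, values that turned sign had these ranges. For E2 at 2 hr, the log2 change ran for Klf9's second probe from -0.14 to 0.21. For E3 at 2 hr, the log2 change ran for Klf2 from -0.095 to 0.10 and for Klf6 from -0.10 to 0.015. For E2 at 24 hr, the log2 change ran for Klf3's second probe from -0.0070 to 0.14 and for Klf5 from -0.051 to 0.049. For E3 at 24 hr, the log2 change ran for Klf3's second probe from -0.049 to 0.17 and for Klf5 from -0.054 to 0.21. For E3 over E2 at 2 hr, the log2 change ran for Klf2's second probe from -0.22 to 0.26, for Klf4 from -0.095 to 0.078, for Klf5 from -0.24 to 0.12, for Klf7 from -0.23 to 0.043, for Klf9 from -0.21 to 0.037 and for Klf15 from -0.26 to 0.23. For E3 over E2 at 24 hr, the log2 change ran for Klf2 from -0.21 to 0.074, for Klf3 from -0.035 to 0.26, for Klf3's second probe from -0.12 to 0.10 and for Klf5 from -0.066 to 0.20. For E2 24 over 2 hr, the log2 change ran for Klf6's second probe from -0.21 to 0.011, for Klf13 from -0.051 to 0.063 and for Klf15 from -0.049 to 0.44. For E3 24 over 2 hr, the log2 change ran for Klf5's second probe from -0.13 to 0.13, for Klf7 from -0.085 to 0.087, for Klf7's second probe from -0.083 to 0.038, for Klf9 from -0.074 to 0.074, for Klf9's second probe from -0.11 to 0.055 and for Klf13 from -0.070 to 0.0058. For the E3 minus E2 difference between times, the log2 change ran for Klf3 from -0.16 to 0.13, for Klf5 from -0.094 to 0.26 and for Klf13 from -0.10 to 0.019. Under the mean over both probes the turn follows from averaging probes that disagree. For the other turned values and lost calls the cause was not tested. Same-numbered arrays of different groups correlated with a median r of 0.035 (-0.47 to 0.55 over 30 pairs, 10 above 0.1), beside 0.017 for different numbers. Of 15 arrays 6 were closest to their own number. No pairing by number was read from this, although such a check cannot show that there was none. With the replicate block the number of called factors did not move in any of the 9 comparisons (3 in E2 2 hr and 1 in E3 24 hr, for example), and the second Klf15 probe lost its E3 24 hr call, at -1.04. The second probes of Klf5, Klf13 and Klf15 were dim, with mean log2 levels of -3.85, -3.95 and -3.21, and each lost a call under normexp.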
